A study of Homo sapiens with 7 samples.

Results

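The core subunit genes of the SWI/SNF (BAF) chromatin remodelling complex were described in human T47D/A1-2 breast cancer cells. The 10 members were taken by name and not by any measured value: the ATPase genes SMARCA4 and SMARCA2, the scaffold genes SMARCC1 and SMARCC2, SMARCB1, the SMARCD1, SMARCD2 and SMARCD3 paralogs, SMARCE1 and ACTL6A. All 10 were found among the 26175 genes with a steady-state mRNA value, and 9 of them had a transcription start site (TSS) among the 10391 called gene TSSs. The cells are named T-47D in the labels and T47D/A1-2 in the study, T-47D cells engineered to hold extra glucocorticoid receptor, of the rat form, together with a luciferase gene driven by the MMTV promoter in their genome. They were grown in DMEM with fetal bovine serum and then moved to serum stripped with charcoal and dextran for 24 hours or longer, so all values belong to a single condition in a single line. RNA-seq gave 1 value per gene, in FPKM, which counts fragments per length of transcript and per depth of library, from replicates that the authors had merged. Start-seq sequences short capped nuclear RNA, so that the first base of a read marks a TSS to the nucleotide, and its calls came from 1 library. No value below has an error between replicates, the depth behind each is unknown, and no group was compared with another by a test.

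SWI/SNF complexes use the energy of ATP to slide or evict nucleosomes, which opens promoters and enhancers to transcription factors and RNA polymerase II. A canonical BAF complex holds a single ATPase, either SMARCA4 (BRG1) or SMARCA2 (BRM). The ATPase sits on a core of SMARCC scaffold proteins, SMARCB1, a SMARCD protein and SMARCE1, and the actin-related protein ACTL6A is bound to the ATPase. In breast cancer cells the complex is known as a cofactor of steroid receptors, and the MMTV promoter is a classical template for its recruitment by the glucocorticoid receptor. Many promoters are also transcribed from the opposite strand. An upstream antisense TSS (uaTSS) was called on the opposite strand up to 1000 nt upstream of a gene TSS, and a downstream antisense TSS (daTSS) on the opposite strand up to 2000 nt downstream, inside the gene.

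The labelled cell type was checked first. All 9 luminal breast markers were present, from 44.1 FPKM for ESR1, the estrogen receptor, to 1142 for KRT8, a luminal keratin. The basal keratins KRT5 and KRT14 were listed at 0, the mesenchymal VIM was at 0.864 FPKM and CDH2 at 0.128, and the leukocyte marker PTPRC was at 0.0208. Of the neuronal markers, RBFOX3 was at 0.00435 FPKM and SYP at 8.52.

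The start sites themselves are shown first, since the calls are positions and every later count rests on them. Each line reads 5′ to 3′ on the strand that is transcribed, in GRCh37 (hg19), and the capitals mark the last base before the start (-1) and the first transcribed base (+1). The 3 gene TSSs with CA at these positions, those of SMARCA2, SMARCD2 and ACTL6A, stand beside that of SMARCD1, called exactly at its annotated start, and the 4 without a pyrimidine at -1 and a purine at +1, those of SMARCB1, SMARCC1, SMARCC2 and SMARCE1.
SMARCA2 (chr9:2016032-2016061, plus strand): cgcttcccagggacttgttCAaagggctcc
SMARCD2 (chr17:61920095-61920124, minus strand): caagtcccggatcgcggagCAcagagcacg
ACTL6A (chr3:179280694-179280723, plus strand): ggctgataggaggagccagCAagtgtggct
SMARCD1 (chr12:50479105-50479134, plus strand): agttccggttccggttcttTGtgcggctgc
SMARCB1 (chr22:24129159-24129188, plus strand): gcctgcgcactgagggcggCCtggtcgtcg
SMARCC1 (chr3:47822897-47822946, minus strand): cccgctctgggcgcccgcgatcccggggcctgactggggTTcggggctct
SMARCC2 (chr12:56583246-56583275, minus strand): cgggcggcggcggggcccgAGccggagaag
SMARCE1 (chr17:38804873-38804902, minus strand): gagtttaagctgaaagtggGGacggtcgtt

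The antisense sites inside the genes are shown for the 4 members whose daTSS read CANW, the core of the initiator element (C at -1, A at +1, any base, then A or T). They lie on the strand opposite to the gene.
SMARCA2 daTSS (chr9:2018032-2018081, minus strand): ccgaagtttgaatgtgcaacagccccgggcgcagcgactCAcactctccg
SMARCC1 daTSS (chr3:47822771-47822820, plus strand): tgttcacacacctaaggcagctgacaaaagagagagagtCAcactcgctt
SMARCC2 daTSS (chr12:56582128-56582177, plus strand): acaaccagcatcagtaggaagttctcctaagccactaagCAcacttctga
ACTL6A daTSS (chr3:179281394-179281443, minus strand): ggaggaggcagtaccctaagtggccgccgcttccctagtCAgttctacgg

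Most core subunit genes had abundant steady-state mRNA, and the ATPase SMARCA2 and the muscle and heart subunit SMARCD3 stood lowest. The members' median was 61.3 FPKM, or 5.94 on the log2(FPKM + 0.1) scale against -0.67 over all genes, of which 7888 were at 0. Of the 10, 8 were in the top 10% of all genes, and 8 were above 14.4 FPKM, the median of the 12271 genes with at least 1 FPKM.

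**Figure D1:**
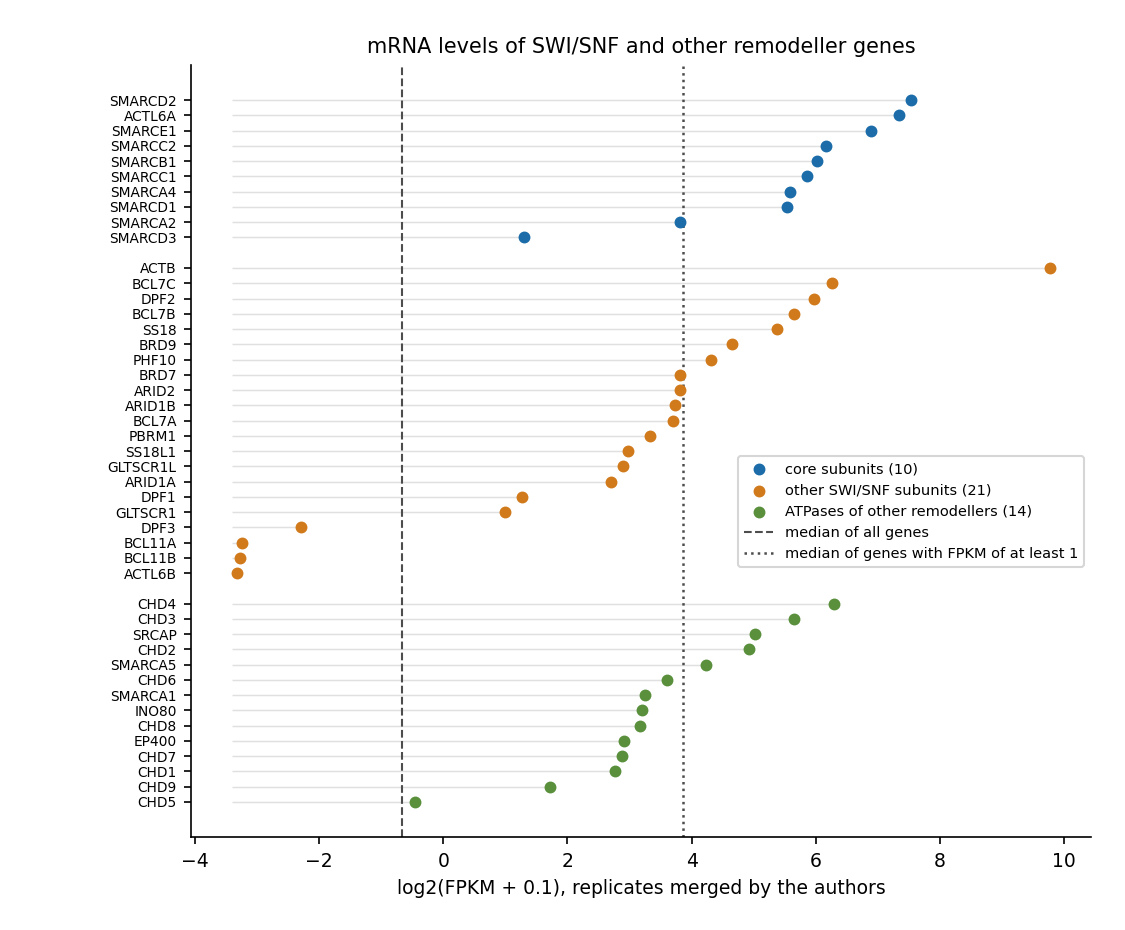
Steady-state mRNA on the log2(FPKM + 0.1) scale, 1 point per gene from the merged replicates, for the 10 core subunit genes, 21 other SWI/SNF subunits and 14 ATPases of other remodellers; the dashed and dotted lines are the medians of all genes and of genes with at least 1 FPKM. Of the core genes, 8 sit right of the dotted line, SMARCA2 beside it and SMARCD3 between the lines.

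Of the ATPases, SMARCA4 had 48.1 FPKM (rank 2283) and SMARCA2 had 13.9 (rank 6248). SMARCA4 was thus 3.46 times SMARCA2, a difference of 1.78 in log2(FPKM + 0.1), and held 77.6% of their summed 62.0 FPKM. SMARCA2 lay at the 49.1 percentile of genes with at least 1 FPKM, close to the middle of the mRNAs measured at that level.

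The scaffold genes were the nearest to balance. SMARCC2 (BAF170) had 71.5 FPKM and SMARCC1 (BAF155) 58.0, which are 55.2% and 44.8% of their sum of 129.5. SMARCB1, the subunit that contacts the nucleosome face and is lost in malignant rhabdoid tumours, had 64.5 FPKM (rank 1632). Its deposited locus was shared with the neighbouring gene DERL3.

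The SMARCD paralogs, of which a complex takes a single one, spread the widest. SMARCD2 was the highest of all members at 185 FPKM (rank 362), followed in its family by SMARCD1 at 46.1 and SMARCD3 at 2.37. SMARCD2 held 79.2% of the family's 233.5 FPKM, SMARCD1 19.8% and SMARCD3 1.01%. SMARCD2 was 4.01 times SMARCD1 and 78.2 times SMARCD3, the paralog known from heart and muscle development.

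ACTL6A (BAF53a) followed SMARCD2 at 162 FPKM (rank 445), and SMARCE1 (BAF57), the subunit with an HMG box, had 119 (rank 717). ACTL6B, which replaces ACTL6A in neurons, was listed at 0. With 1 merged value per gene, neighbours in this order, such as SMARCA4 and SMARCD1, cannot be told apart from replicate error.

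The other subunits were less uniform. Of 21 other SWI/SNF subunit genes, all in the table, 17 had at least 1 FPKM, with a median of 13.0. Their highest were ACTB at 878 FPKM, the actin that also serves the cytoskeleton, BCL7C at 76.7 and DPF2 at 63.0, and their lowest beside ACTL6B were BCL11B at 0.00325 and BCL11A at 0.00578. Among 14 ATPase genes of other remodelling families, 13 had at least 1 FPKM, with a median of 9.27. CHD4 and CHD3, the ATPases of the NuRD complex, led them at 78.6 and 49.98 FPKM, then SRCAP at 32.4, and CHD1 at 6.74, CHD9 at 3.18 and CHD5 at 0.631 were the lowest. 

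A gene TSS was called for 9 of the 10 members within their deposited locus widened by 1000 nt on each side, each exactly once. The authors kept a single gene TSS per search window, so starts of a gene that shared a window could not add calls. Over the whole table, 49.9% of genes had a gene TSS, and 81.8% of those with at least 1 FPKM. These shares, like all shares and list counts in this paragraph, take any gene TSS in the widened locus. It may lie on either strand or belong to a neighbouring gene. A call can thus count for several genes, and 13064 genes had one of the 10391 gene TSSs. The 9 member calls all lay on the gene's own strand, so these shares are not fully like for like. The member without a call was SMARCD3, at chr7:150935850-150974982 on the minus strand. Of the 761 genes with 2 to under 3 FPKM, its own level, 63.1% had a gene TSS. The nearest call to SMARCD3 lay 6474 nt outside its locus, on the plus strand, at the start of CHPF2. From the FPKM of SMARCA2 upward, 90.0% of genes had a call, and all 9 members at or above it had one. A gene TSS was called for 16 of the 21 other SWI/SNF subunits and for 10 of the 14 other ATPases. A uaTSS was called at 10 and 5 of them, beside 29.3% of all genes and 49.5% of those with at least 1 FPKM, and a daTSS at 6 and 4, beside 16.0% and 27.3%.

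Of the ATPases, SMARCA4 (ENSG00000127616, chr19:11071608-11190102, plus strand) was called at 11071550, which is 58 nt upstream of its first annotated start and 48 nt outside its deposited locus. SMARCA2 (ENSG00000080503, chr9:1980290-2193624, plus strand) was called at 2016052, 705 nt downstream of the start of its MANE Select transcript, the reference model, and 81 nt downstream of the start of another. The SMARCA2 call lay 648 nt past the end of exon 1 of the reference model, in its intron 1.

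The scaffold genes differed in how near their calls came to the annotation. SMARCC2 (ENSG00000139613, chr12:56556143-56583351, minus strand) was called at 56583255, 2 nt from an annotated start. SMARCC1 (ENSG00000173473, chr3:47626759-47823596, minus strand) was called at 47822906, 477 nt downstream of the MANE Select start and 187 nt past the end of exon 1, the only member with no annotated start within 100 nt.

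Of the remaining subunits, SMARCB1 (ENSG00000099956, chr22:24129118-24180196, plus strand) was called at 24129179, 26 nt downstream of the MANE Select start. SMARCD1 (ENSG00000066117, chr12:50478983-50494490, plus strand) was called at 50479125, exactly at that start. SMARCD2 (ENSG00000108604, chr17:61909441-61920425, minus strand) was called at 61920104, 59 nt upstream of that start. SMARCE1 (ENSG00000073584, chr17:38781214-38804906, minus strand) was called at 38804882, 812 nt upstream of the MANE Select start and 24 nt downstream of the start of another transcript, outside the deposited locus by 779 nt. ACTL6A (ENSG00000136518, chr3:179280674-179306195, plus strand) was called at 179280714, also exactly at the MANE Select start.

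All 9 calls thus lay within 1000 nt of the MANE Select start. Of these, 8 lay within 100 nt of an annotated start on their strand, beside 81.8% of all gene TSSs. This nearness was partly set beforehand. The authors searched for gene TSSs only in windows around annotated mRNA starts and preferred the candidate position closest to the annotated start. At SMARCC2 and SMARCE1 a second annotated gene on the same strand covers the call. Each call stood alone: no other gene TSS was called within 5000 nt, as for 77.5% of all gene TSSs. The nearest lay from 15313 nt away, at SMARCD2, to 605358 nt, at SMARCA2. Standing alone was also partly set beforehand, since the authors merged overlapping windows of the same gene and kept a single gene TSS in each. Another start of the same gene close to a call could therefore not appear.

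Antisense initiation was called at 7 of the 9 gene TSSs. SMARCA2, SMARCA4, SMARCC1, SMARCC2 and ACTL6A had both a uaTSS and a daTSS. The study had already shown ACTL6A as its example of a locus with both sites. SMARCB1 had only a daTSS, SMARCD2 only a uaTSS, and SMARCD1 and SMARCE1 had neither. That is 6 with a uaTSS beside 53.1% of all gene TSSs, 6 with a daTSS beside 28.4%, 5 with both beside 17.5%, and 2 with neither beside 35.9%. With 9 genes these counts are a description, and both ATPase genes and both scaffold genes were in the class with both sites. The authors also filtered daTSS calls, so a missing daTSS may be a call that was filtered out.

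**Figure D2:**
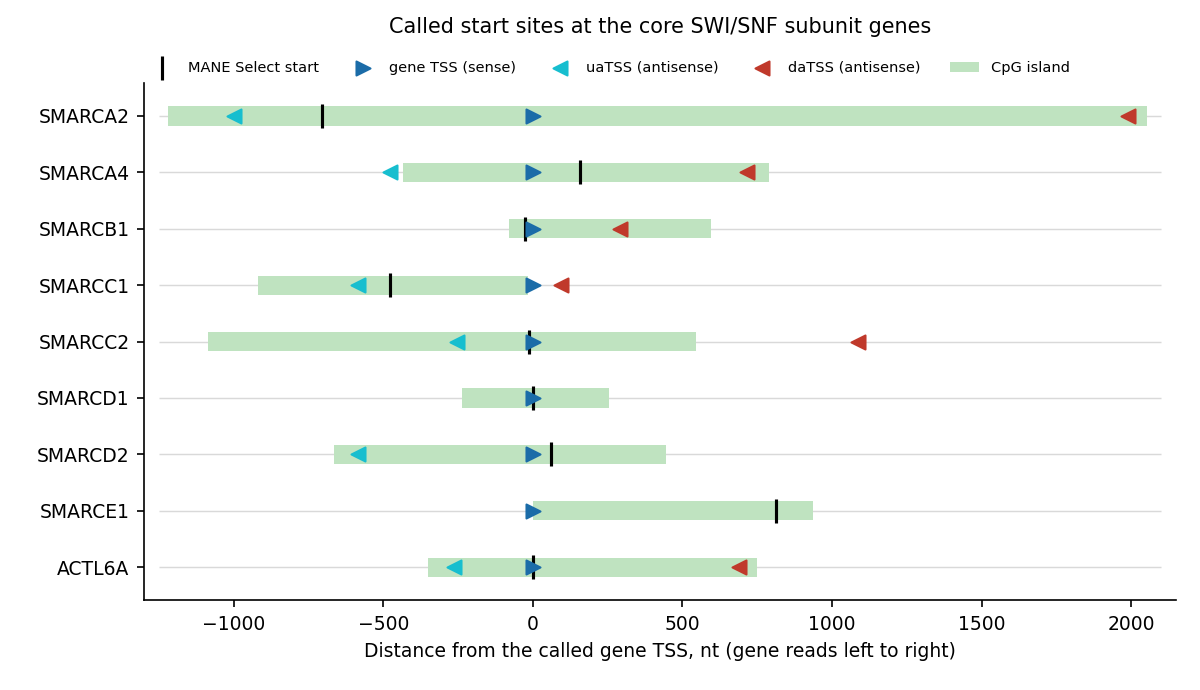
Distance of each called site from the gene TSS in nt, drawn to scale along the direction of transcription, 1 line per member with a gene TSS; marks show the gene TSS, uaTSS, daTSS and MANE Select start, and bars the CpG islands. SMARCA2 spans the widest interval, with its uaTSS at 1000 nt and its daTSS at 1989 nt.

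The mRNA level overlapped between these classes. The 6 members with a daTSS ran from 13.9 to 162 FPKM with a median of 61.3, and the 3 gene TSSs without one from 46.1 to 185 with a median of 119. The 6 with a uaTSS ran from 13.9 to 185 and the 3 without from 46.1 to 119, with medians of 64.8 and 64.5 FPKM.

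The upstream antisense sites lay farther from the gene TSS than the series' median, though not all were beyond its upper quartile. They were 255 nt upstream at SMARCC2, 262 at ACTL6A, 476 at SMARCA4, 585 at both SMARCC1 and SMARCD2, and 1000 at SMARCA2. Their median of 530.5 nt stands beside 200 nt over all 5519 uaTSSs, whose quartiles were 127 and 329.5. All 6 were above 200 nt, and those of SMARCC2 and ACTL6A lay between the quartiles. The SMARCA2 site sat at the limit of the search, where 0.0362% of uaTSSs lay. Measured from the MANE Select start in place of the call, the members' median was 278.5 nt, with SMARCC1 at 108, SMARCC2 at 243, ACTL6A at 262, SMARCA2 at 295, SMARCA4 at 632 and SMARCD2 at 644.

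The downstream antisense sites covered nearly the whole search window. The daTSS of SMARCC1 lay 95 nt downstream, that of SMARCB1 290, of ACTL6A 689, of SMARCA4 715, of SMARCC2 1087 and of SMARCA2 1989. Beyond 1900 nt lay 0.575% of all daTSSs. The median of 702 nt compares with 507 over all 2956 daTSSs, with quartiles of 312.75 and 804.25, so that 2 members lay below the lower quartile, 2 above the upper one and 2 between them. Counted from the MANE Select start, SMARCC1 stood at 572 nt in place of 95, SMARCB1 at 316, SMARCA4 at 559, ACTL6A at 689, SMARCC2 at 1099 and SMARCA2 at 2694. None of these values is below 312.75, and SMARCB1 is close to it. That quartile is of distances from the called gene TSS, however, and none was computed from the MANE Select start. Up to 1000 nt downstream of the call, 4 of 9 members had a daTSS, beside 24.1% of all gene TSSs.

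**Figure D3:**
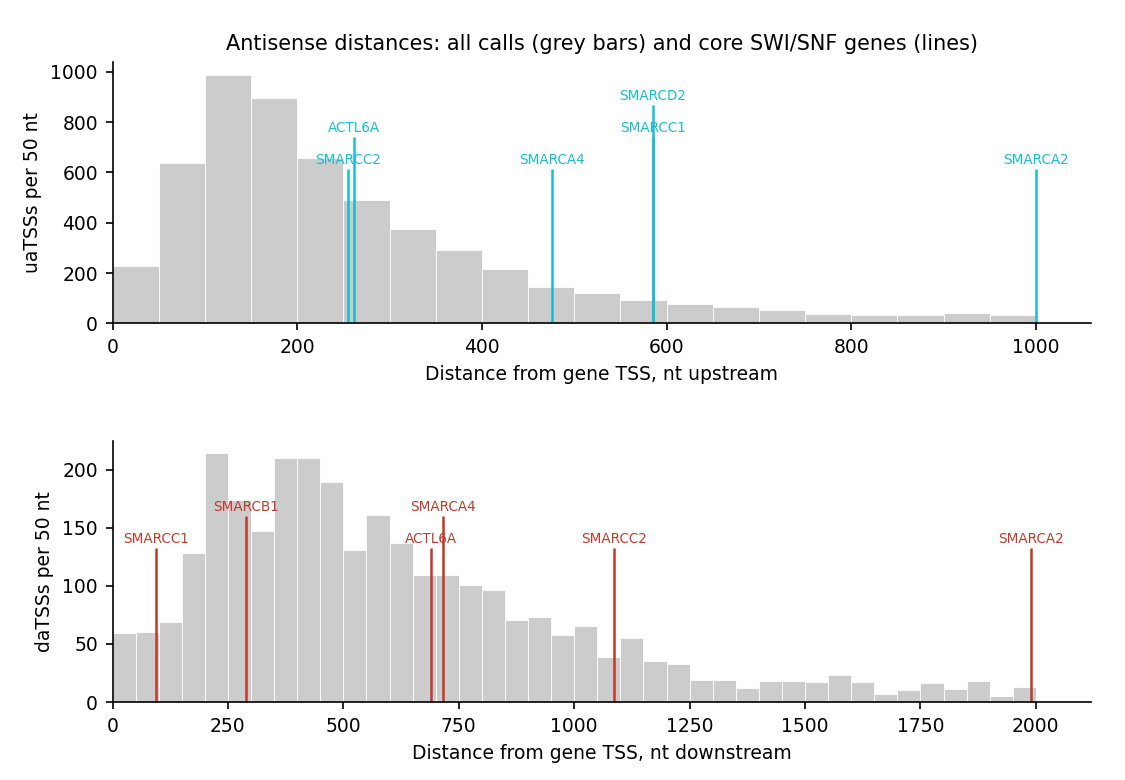
Number of uaTSSs and daTSSs in the whole series per 50-nt bin of distance from the gene TSS, with the members' own distances marked by name. The 6 members' uaTSSs all fall right of the series' median of 200 nt, and their daTSSs are spread from 95 to 1989 nt.

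Most daTSSs lay in introns of their genes. Over all annotated transcripts 5 of 6 did, beside 60.2% of the 2942 daTSSs that could be placed on a gene model, and the exception, SMARCA4, lay in an exon of an alternative transcript. In the reference model exon 1 ended 120 nt downstream of the call at SMARCC2, 191 nt at ACTL6A, 270 nt at SMARCB1 and 300 nt at SMARCA4, each nearer than the daTSS. None of the 12 antisense sites was covered by another annotated gene on its strand, as for 76.2% of all antisense sites, and the nearest annotated start on that strand was 3346 to 32908 nt away. For the daTSSs this distance was partly set beforehand, since the authors had removed calls near an annotated TSS on the same strand.

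CpG islands, stretches rich in GC and in the CG dinucleotide that mark most broadly used promoters, held 7 of the 9 gene TSSs, beside 82.7% of all gene TSSs. The longest was that of SMARCA2 at 3274 bp (chr9:2014832-2018105), beside a median of 923 bp over all islands with a gene TSS, followed by SMARCC2 at 1632, SMARCA4 at 1224, SMARCD2 at 1111, ACTL6A at 1101, SMARCB1 at 679 and SMARCD1 at 492. The other two calls were just outside one: SMARCC1 by 16 nt past the downstream edge of a 903-bp island, and SMARCE1 by 2 nt before a 936-bp island.

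The antisense sites were set against the edges of these islands. Of the 5 uaTSSs whose gene TSS was in an island, 4 lay within 250 nt of its upstream edge, beside 61.3% in the series. They were 81 nt inside the edge at SMARCD2, 89 at ACTL6A and 220 at SMARCA2, and 43 nt outside it at SMARCA4, whereas SMARCC2 had its site 830 nt inside. Of the 5 daTSSs, 3 lay within 250 nt of the downstream edge, beside 53.5%. These were 60 nt inside at ACTL6A, 64 at SMARCA2 and 75 at SMARCA4, and the others were 307 nt inside at SMARCB1 and 541 nt outside at SMARCC2. At SMARCA2 and ACTL6A both antisense sites thus lay just inside the ends of an island, although the islands differed in length by 3274 against 1101 bp.

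Base composition at the gene TSSs was high in GC. The 100 nt around them held from 60% GC, at SMARCE1 and ACTL6A, to 84% at SMARCA4, with a mean of 71.2% beside 67.2% over all gene TSSs. In 8 of 9 the 500 nt downstream held more GC than the 500 nt upstream, beside 64.6% of all gene TSSs. The exception was SMARCC1, whose downstream side was lower by 32.0 percentage points and whose call lay past an island's downstream edge.

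**Figure D4:**
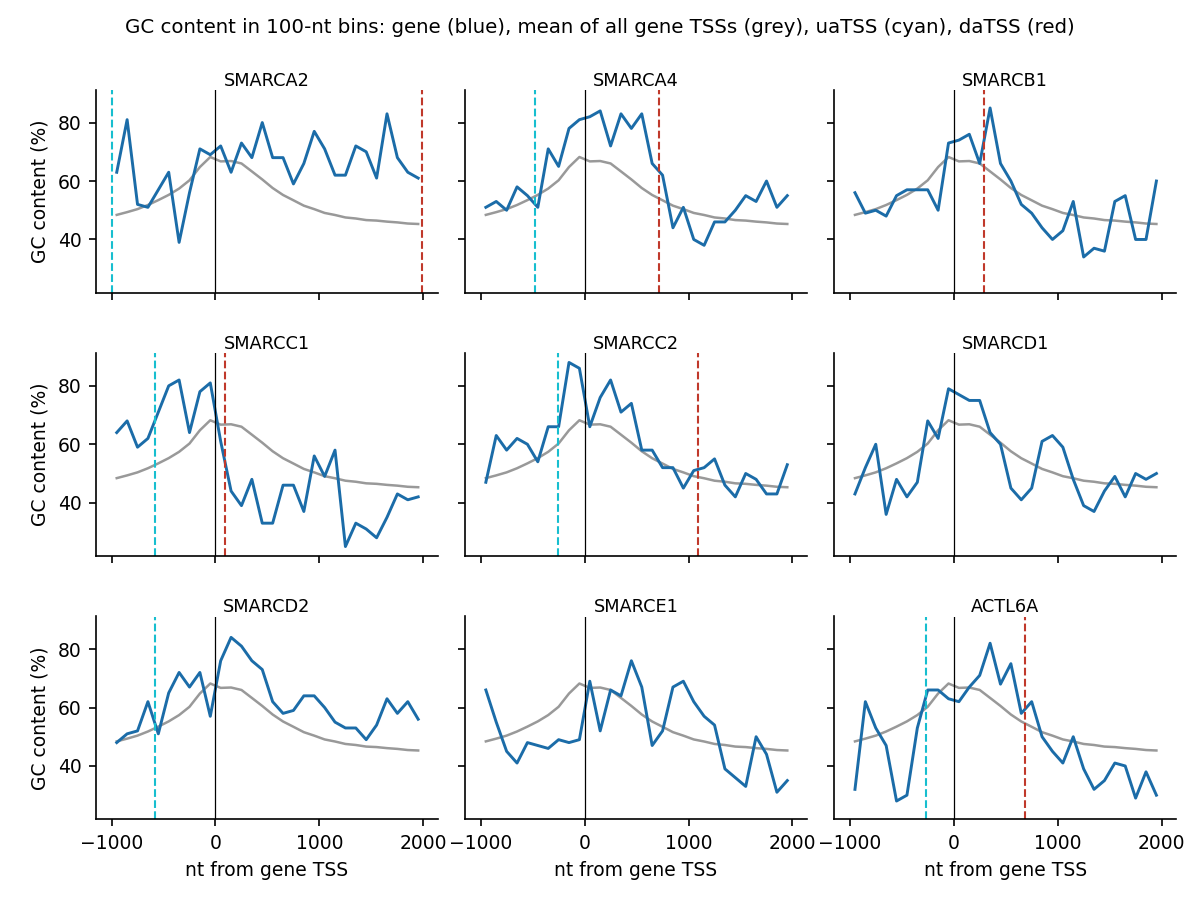
GC content in percent in 100-nt bins from 1000 nt upstream to 2000 nt downstream of the gene TSS, 1 panel per member, with the mean over all gene TSSs as a second line and antisense sites marked. SMARCA2 stays high to the end of the window, whereas SMARCC1 falls right after its gene TSS.

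Around the daTSSs, read in the antisense direction, all 6 had more GC in the 500 nt downstream, back towards the gene TSS, than in the 500 nt upstream, beside 83.3% of all daTSSs. The differences were 3.0 percentage points at SMARCC2, 3.8 at SMARCB1, 20.8 at ACTL6A, 21.8 at SMARCA2, 30.4 at SMARCA4 and 33.4 at SMARCC1, where the mean over all daTSSs was 10.3. At SMARCC1 and SMARCB1 the daTSS lay only 95 and 290 nt from the gene TSS. Their downstream windows therefore ran past it into the sequence upstream of the gene. At the uaTSSs the sign was the opposite in all 6, beside 87.8% of all uaTSSs. The values ran from -22.2 at ACTL6A to -1.6 at SMARCA2, with a mean of -12.0 over all uaTSSs. At a uaTSS the upstream side faces the gene TSS, so at both kinds of site the side towards the gene TSS held more GC. At SMARCC2, ACTL6A and SMARCA4 the uaTSS lay only 255, 262 and 476 nt from the gene TSS. Their upstream windows therefore ran past it into the gene.

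Initiation sequences were read at the called bases. The usual step from a pyrimidine (-1) to a purine (+1) occurred at 5 of 9, SMARCA2, SMARCA4, SMARCD1, SMARCD2 and ACTL6A, beside 66.1%, and CANW at SMARCA2 and SMARCD2, beside 18.8%. A TATA-like TATAW (W is A or T) starting from -35 to -24 on the gene's strand was found at none, beside 3.0%. GGGCGG, the core of the GC box bound by SP1-type factors, was searched on both strands in the 50 nt upstream and found at 5 of 9, SMARCA4, SMARCB1, SMARCC1, SMARCC2 and SMARCD1, beside 27.4%. In the 100 nt upstream it was found at 6 of 9, beside 50.2%, so the gap to all gene TSSs depended on the window. Such matches are letters in a window and no evidence of binding.

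The antisense sites were read in the same way. A pyrimidine-purine step was found at 4 of 6 uaTSSs, beside 64.7%, and at 5 of 6 daTSSs, beside 66.9%. CANW was found at 2 of 6 uaTSSs, SMARCA4 and SMARCC2, beside 18.6%, and at the 4 of 6 daTSSs printed above, beside 25.5%.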

How the data were processed

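Human T47D/A1-2 cells were profiled by RNA-seq and Start-seq. Per the labels and the study's methods, the authors trimmed reads with cutadapt 1.2.1, aligned RNA-seq with TopHat2 2.0.4, removed duplicates with Picard 1.118, merged the replicates and estimated FPKM with Cufflinks 2.2.1, whose strand setting was not given in the sources used here. The deposited values are 1 FPKM per gene, with 28 symbols turned into dates. Start-seq was aligned with Bowtie 0.12.8 to hg19, and the authors called a TSS where a position reached 5 reads. For gene TSSs they searched only windows around annotated mRNA starts, and they merged overlapping windows of the same gene name. In each window they kept at most a single gene TSS, the candidate position closest to the annotated start. They filtered out a daTSS that lay near an annotated TSS on its strand. They also filtered out a daTSS with enough reads on the gene's strand shortly upstream of it, relative to the gene TSS. The deposited calls carry a score of 0 in every row, so depth is unknown and no counting interval could be given. All calls used came from Start-seq replicate 1, and the second Start-seq library, FAIRE-seq and MNase-seq were not analysed here.

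Gene TSSs were taken inside the deposited locus of each member widened by 1000 nt, and antisense sites by the identifier they share with it. Sequence and gene models came from GRCh37 and GENCODE lifted to it. CpG islands were over 200 bp with at least 50% GC and CpGs observed over expected above 0.6, and the search was tested on simulated sequence. Log2 values used a pseudocount of 0.1. The named genes are the 10 members, the extremes of both lists and ACTL6B, with the listed cell type markers. The neighbours DERL3 and CHPF2 were named after their values were seen. The members and lists were chosen with earlier results of these data known. Shares of all genes or TSSs stand beside the counts of members in place of a test. Python 3.11.15 with numpy 2.4.6, pandas 2.3.3, pysam 0.24.0, numba 0.67.0 and matplotlib 3.10.9 was used.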

Additional observations from a re-analysis of the deposited data

How the results depend on the processing

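Of 17 other settings, 16 moved no value beyond its limit: a count within 1.5 times, or a log2 value within 0.1. For counts this small a limit of 1.5 times is wide, and the fall from 6 to 4 daTSSs lies exactly on it. The settings included joining by position, an FPKM minimum of 1 and a pseudocount of 1. Without widening of the locus 7 members had a gene TSS in place of 9, with no share of all genes computed. A limit of 1000 nt for daTSSs gave 4 in place of 6, beside 24.1% of all gene TSSs. Stricter islands held 6 gene TSSs in place of 7, beside 70.9%. GGGCGG was at 6 gene TSSs in 100 nt in place of 5 in 50 nt, beside 50.2%. With 1 nt of slack the pyrimidine-purine step stayed at 5, beside 75.5%. By the nearest transcript 6 daTSSs lay in introns in place of 5, beside 71.1% of all daTSSs. The value that moved beyond its limit was SMARCD2 minus SMARCD3, which was 6.23 with a pseudocount of 0.1 and 5.79 with 1. Distances from the MANE Select start were chosen after seeing the data, with medians of 278.5 nt for uaTSSs and 630.5 nt for daTSSs in place of 530.5 and 702. No paired analysis was possible because the replicates were merged, and no replicate could be left out. The unknown depth and the authors' filter on daTSS calls limit any reading of absent calls.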
